A study of Mus musculus with 6 samples.

Results

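Semaphorins, ephrins and their receptors were measured in the prefrontal cortex of adult mice by RNA sequencing. The genes were taken by symbol: secreted and membrane semaphorins of classes 3 to 7, plexins, neuropilins, ephrins and Eph receptors. The rule found 53 of the 23284 genes counted, of which 31 were semaphorins, plexins and neuropilins and 22 were ephrins and Eph receptors. There were 3 libraries from single-housed mice and 3 from group-housed mice. All were wild type C57BL/6 animals, labelled 8 to 10 weeks old, that had lived for 6 days under their housing condition before the tissue was dissected. The labels name no transgene and no agent. Whether every library is a separate animal is not stated there, so the p-values rest on the variation among libraries, part of which may be technical.

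Semaphorins and ephrins are cues that steer growing axons, and in the adult brain they also act on spines, synapses and myelinating cells. Class 3 semaphorins are secreted and mostly bind a neuropilin that recruits a plexin, while the other classes are tethered to the membrane and mostly bind plexins directly. Ephrins are held on the cell surface, by a lipid anchor in the A class and by a transmembrane segment in the B class, and bind Eph receptor tyrosine kinases on neighbouring cells, with signals running into both cells.

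Total counts were 32902303 to 33428512 in single-housed libraries and 25858355 to 32088512 in group-housed libraries, and the guidance genes together took 0.312% to 0.330% of them in single-housed and 0.303% to 0.324% in group-housed libraries. Of the sets of marker genes counted, the libraries differed most in 2, in both housing groups. Summed CPM (each library's counts scaled to a common total by TMM) of 17 striatal projection neuron markers, among them Ppp1r1b, Penk and Scn4b, was 696 to 3291 among single-housed and 729 to 1593 among group-housed libraries. The sum over 8 oligodendrocyte markers, among them Mbp and Cnp, was 2020 to 4268 among single-housed and 1994 to 5461 among group-housed libraries. Single-housed replicates 1 and 2 and group-housed replicate 1 had the highest means of both lists. The balance between housing groups was not the same for the 2 lists. For striatal markers the log2 difference, single-housed minus group-housed, was positive in 17 of 17, and its median was 0.92. For oligodendrocyte markers it was negative in 7 of 8, and its median was −0.045. Housing groups overlapped for every marker of both lists, and 0 passed the housing test given below. No marker of either list was at 0 in any library. The other marker lists varied less. Fibroblast markers summed to 45.9 to 55.9 CPM among single-housed and 36.5 to 49.4 among group-housed libraries. Of these, 5 of 5 were higher in single-housed mice. Microglia markers summed to 354 to 370 CPM among single-housed and 346 to 425 among group-housed libraries. Of these, 6 of 6 were lower in single-housed mice. The 6 excitatory cortical neuron markers, the defining cells of the labelled tissue, were present throughout, at 5846 to 6389 summed CPM among single-housed and 5658 to 6626 among group-housed libraries. Their sum was lower in single-housed replicates 1 and 2 and group-housed replicate 1, at 5846, 5887 and 5658, than in each other library. The log2 difference was negative in 6 of 6, with a median of −0.063, and 0 passed the housing test.

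To set genes of different length side by side, levels are given as CPM per kilobase of exon. All 53 genes had counts, and 52 passed the filter on low counts. They spanned a wide range, and 23 of the 52 lay above the median level of the 15258 genes tested, with 6 in the top 20%. The semaphorins held the largest summed level, 239 ± 16.6 CPM per kilobase in libraries of single-housed mice and 238 ± 3.05 in those of group-housed mice (SD, 3 libraries each). The Eph receptors followed with 189 ± 9.64 for single-housed and 188 ± 11.9 for group-housed mice, ahead of plexins with 109 ± 4.86 for single-housed and 105 ± 13.2 for group-housed mice. Ephrins summed to 96.7 ± 11.9 for single-housed and 91.2 ± 7.97 for group-housed mice, and neuropilins to 8.64 ± 0.631 for single-housed and 8.77 ± 0.612 for group-housed mice. Each of these sums differed between the housing groups by less than the SD of either group.

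**Figure D1:**
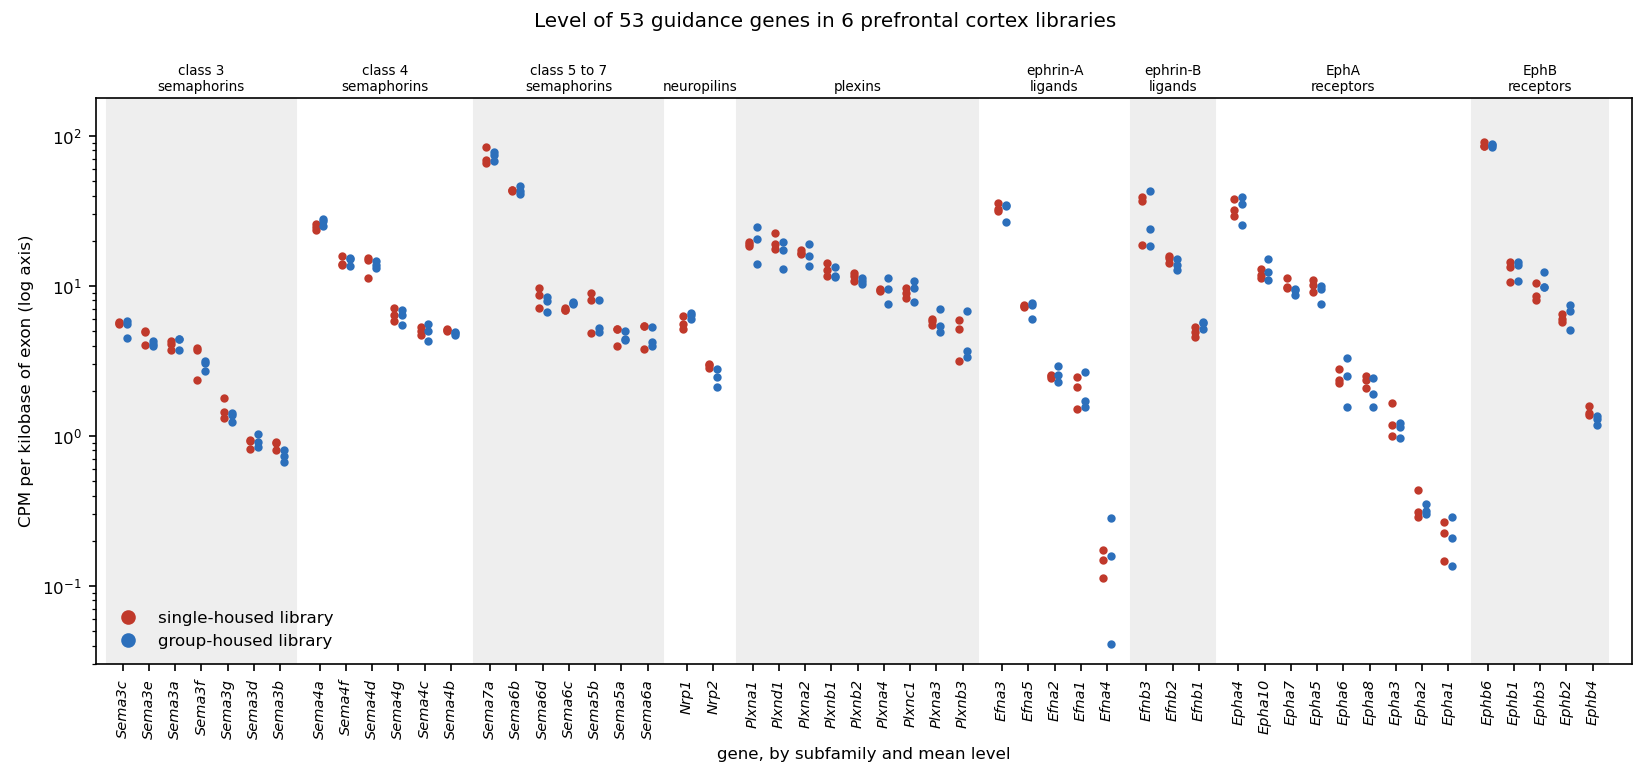
Level of each guidance gene in each library, in CPM per kilobase of exon on a log axis, with genes grouped by subfamily and ordered by mean level; red points are single-housed and blue points group-housed libraries. Ephb6 (mean 86.8) and Sema7a (73.1) stand at the top and Efna4 (0.153) and Epha1 (0.211) at the bottom, and for most genes the red and blue points overlap.

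Among the ligands, the secreted class 3 semaphorins were low. Sema3c, a cue for migrating neural crest and cortical axons, had the highest level of the class, at 5.47 ± 0.506 CPM per kilobase over the 6 libraries (SD with both housing groups together, as for the other levels of single genes per kilobase). Sema3e, which binds Plxnd1 without a neuropilin, had 4.38 ± 0.438, and Sema3a, the classical axon repellent that is retained in perineuronal nets of adult cortex, had 4.11 ± 0.301. The ranges of Sema3e and Sema3a overlapped, so their order is not resolved. Sema3b was the lowest, at 0.805 ± 0.0909.

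The membrane semaphorins reached much higher levels. Sema7a, a lipid-anchored semaphorin that binds Plxnc1 and integrins, had 73.1 ± 7.17 CPM per kilobase, and only 927 of the 15258 tested genes had a higher level. Sema6b, a transmembrane ligand of A-class plexins, had 43.4 ± 1.76. Both lay above every other semaphorin in every library. Sema4a followed with 25.7 ± 1.62, then Sema4f, a semaphorin first described in neurons and glia, with 14.6 ± 0.893 and Sema4d, a ligand of Plxnb1 that promotes inhibitory synapse formation, with 13.9 ± 1.5. Sema4f and Sema4d overlapped across libraries. Sema6d, a ligand of Plxna1, had 8.08 ± 1.08. Sema4b, at 4.95 ± 0.152, had the lowest mean of class 4, with Sema4c, at 4.98 ± 0.462, overlapping it, and Sema6a, a ligand of Plxna2 and Plxna4, at 4.69 ± 0.772, was level with Sema5a, at 4.69 ± 0.50, at the foot of classes 5 to 7.

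On the receptor side, both neuropilins lay below most plexins. Nrp1, the co-receptor of Sema3a, had 6.00 ± 0.533 CPM per kilobase, above Nrp2, the co-receptor of Sema3f, at 2.70 ± 0.353. Among plexins, Plxna1 had 19.4 ± 3.47, Plxnd1 18.2 ± 3.13 and Plxna2 16.5 ± 1.79, which overlapped across libraries. Plxnb3, a receptor of Sema5a, had the lowest mean of the plexins, 4.66 ± 1.5, and overlapped with Plxna3, at 5.76 ± 0.722. Some ligands and receptors known to bind each other differed widely in level: Sema7a had 73.1 against 9.21 for its receptor Plxnc1, and Sema3e had 4.38 against 18.2 for Plxnd1. Others were close, with 13.9 for Sema4d against 12.5 for Plxnb1, and 4.69 for Sema5a against 4.66 for Plxnb3. These pairs were picked as examples after their values were seen.

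In the ephrin system the highest receptor was Ephb6, which lacks kinase activity, at 86.8 ± 2.60 CPM per kilobase. Its SD was small beside its level, and only 746 tested genes had a higher one. Epha4, which binds ephrins of both classes and limits spine growth in mouse hippocampus, had 33.1 ± 5.21, and Epha10, another receptor without kinase activity, had 12.4 ± 1.5. Epha7, which restrains dendritic arbors in mouse cortex, had 9.73 ± 0.813. The B-class receptors Ephb1, at 12.9 ± 1.74, and Ephb3, at 9.85 ± 1.52, came next after Ephb6 in their class, and Ephb4, the venous partner of Efnb2, was the lowest of it at 1.37 ± 0.132. Epha1 was near the bottom of what was tested, with 24, 29 and 16 counts in single-housed and 25, 21 and 14 in group-housed libraries.

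The ephrin ligands were led by Efna3, a lipid-anchored A-class ligand, at 32.4 ± 3.23 CPM per kilobase, and Efnb3, a midline cue for corticospinal axons that is also found in myelin, at 29.9 ± 10.9. Efnb3 had the larger SD of the pair, and their ranges overlapped. Efnb2 had 14.5 ± 1.09, Efna5, a repellent cue in topographic maps, 7.20 ± 0.585, Efnb1 5.22 ± 0.453 and Efna2 2.54 ± 0.210. Efna4 was the single member that did not pass the filter, with 9, 8 and 6 counts in single-housed and 12, 2 and 8 in group-housed libraries. Fitted with no filter, its log2 difference was −0.11 with a standard error of 0.57, too wide to place it on either side.

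Several members are neighbours on their chromosomes (coordinates of mouse build mm9, from the deposited table). Efna1, Efna3 and Efna4 lie side by side on chromosome 3, at 89075652 to 89084873, 89118873 to 89126801 and 89137315 to 89141950. The levels of these neighbours were 2.01 ± 0.488, 32.4 ± 3.23 and 0.153 ± 0.0792 CPM per kilobase, so that the middle gene far exceeded both flanking ones in every library. Ephb6 and Epha1 lie within 767.8 kilobases on chromosome 6 and had 86.8 and 0.211, a ratio of 411. In contrast, Sema3d, Sema3a, Sema3e and Sema3c, which share 4852.9 kilobases of chromosome 5, differed by at most 6.03 times. In all, 7 groups of 2 to 4 members lay with gaps of no more than 5 megabases, and members sat on 19 chromosomes.

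Housing was compared with edgeR's quasi-likelihood test, fitted over all 15258 genes, and differences are log2 values of single-housed minus group-housed. No guidance gene passed the test. None of 52 reached an adjusted p of 0.05, and none of the 15258 genes did (0%), with the smallest adjusted p 0.9999 among guidance genes and 0.606 among all genes. At an unadjusted p under 0.05 there was 1 guidance gene, 1.92% of those tested, against 238 genes or 1.56% of all. With the striatal marker mean as a covariate there were 5 of 52, against 402 of 15258 genes. With the oligodendrocyte marker mean there were 5 of 52, against 467 of 15258 genes. DESeq2 called 8 genes of the table and limma-voom 0, in both cases with 0 guidance genes. The sizes were small: differences ran from −0.24 for Ephb3 to 0.27 for Sema5b, 31 of 52 were under 0.1 in size, and 33 were smaller than their own standard error. The median standard error was 0.12 with 3 libraries a group. A difference has to be several times its standard error to pass, and that of Nrp2, 0.27 with a standard error of 0.11, did not. In dissected tissue, fewer cells of a type and less RNA per cell cannot be told apart.

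More guidance genes were higher than lower in single-housed mice, 32 against 20, or 61.5% of those tested, where 50.7% of all genes were higher. Their median difference was 0.05, beside 0.00 over all genes tested. With the striatal mean as a covariate the members' median was 0.0061, and with the oligodendrocyte mean as a covariate it was 0.049. Without the 3 libraries of highest striatal mean, which leaves 1 single-housed against 2 group-housed libraries, it was −0.042. By role, 5 of 7 class 3, 4 of 6 class 4 and 4 of 7 class 5 to 7 semaphorins were higher, as were 5 of 9 plexins, 1 of 2 neuropilins, 3 of 4 ephrin-A ligands, 2 of 3 ephrin-B ligands and 6 of 9 EphA receptors. In the EphB receptors 2 of 5 were higher. In 5 of 52 members, or 9.62%, the 3 single-housed libraries did not overlap with the 3 group-housed ones, against 4.86% of all genes. Of the 5, Nrp2, Epha7, Ephb4 and Sema4b were higher and Sema6c was lower in single-housed mice.

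**Figure D2:**
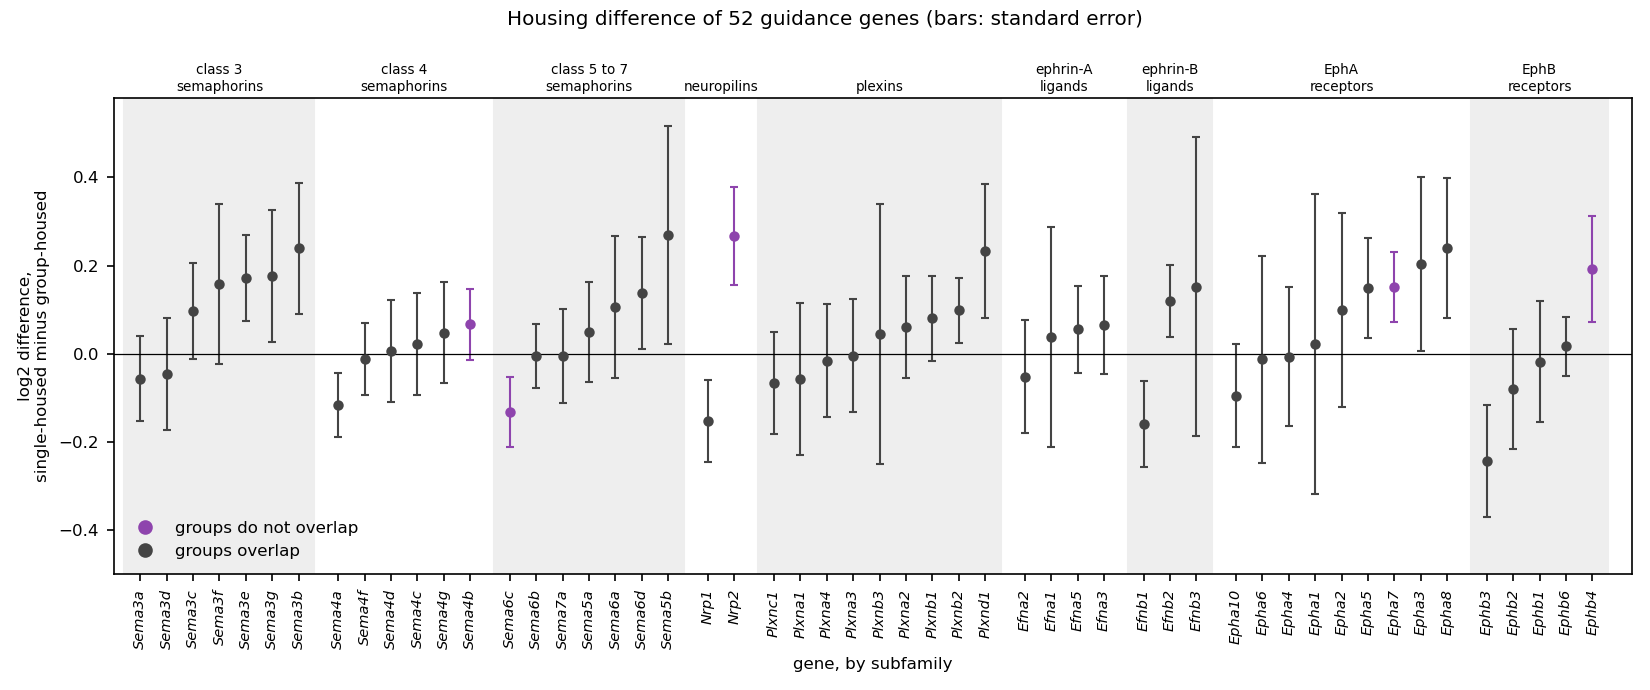
Log2 difference of single-housed minus group-housed libraries for the 52 guidance genes tested, by subfamily, with bars of 1 standard error; purple marks genes whose groups do not overlap. The points lie between −0.24 (Ephb3) and 0.27 (Sema5b), and none passed an adjusted p of 0.05.

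Nrp2, which in mice restrains spines on apical dendrites of deep-layer cortical neurons as part of the Sema3f receptor, had the smallest housing p of the guidance genes. It had 24.6, 23.1 and 24.2 CPM in single-housed libraries, against 17.1, 22.6 and 19.9 CPM in group-housed libraries. All single-housed values lay above all group-housed values, though single-housed replicate 2 was close to group-housed replicate 2. The log2 difference was 0.27 with a standard error of 0.11, an unadjusted p of 0.0409 in edgeR's test and an adjusted p of 0.9999. It was 0.17 without group-housed replicate 1. Its fellow co-receptor Nrp1 lay the other way, at 33.7 ± 3.42 CPM in single-housed libraries, against 37.4 ± 1.63 CPM in group-housed libraries (SD over 3 libraries), a difference of −0.15 ± 0.09 (SE). The ligand Sema3f had 13.1, 12.7 and 7.98 CPM in single-housed libraries, against 10.7, 9.20 and 10.4 CPM in group-housed libraries. Its highest and its lowest value both fell in the single-housed group.

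Epha7 had 77.0, 78.5 and 89.3 CPM in single-housed libraries, against 69.8, 75.2 and 75.4 CPM in group-housed libraries, a log2 difference of 0.15 ± 0.08 (SE). The groups were separate by a narrow margin, with single-housed replicate 3 standing above the rest, and without that library the difference was 0.08. Ephb4 had 6.87, 6.19 and 6.00 CPM in single-housed libraries, against 5.64, 5.14 and 5.91 CPM in group-housed libraries, with a difference of 0.19 ± 0.12. Here too the nearest values of the groups almost touched. Sema4b had 20.3, 19.6 and 19.97 CPM in single-housed libraries, against 19.1, 19.5 and 18.6 CPM in group-housed libraries, a difference of 0.07 ± 0.08 that was smaller than its standard error. Of the 5 genes with separate groups, Sema4b had the only difference below the median size over the 52 guidance genes, 0.08.

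Sema6c, a transmembrane semaphorin, was the one member wholly lower in single-housed mice. It had 19.7, 19.7 and 20.2 CPM in single-housed libraries, against 22.1, 21.4 and 21.8 CPM in group-housed libraries, a difference of −0.13 ± 0.08 (SE). Its libraries were tight within each group. Ephb3, which with Ephb2 guides commissural axons in mice, had the most negative difference, −0.24 ± 0.13, from 35.5, 33.6 and 43.2 CPM in single-housed libraries, against 40.5, 40.9 and 51.4 CPM in group-housed libraries. Its groups overlapped, with replicate 3 the highest in each, and the difference was −0.12 without group-housed replicate 3.

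**Figure D3:**
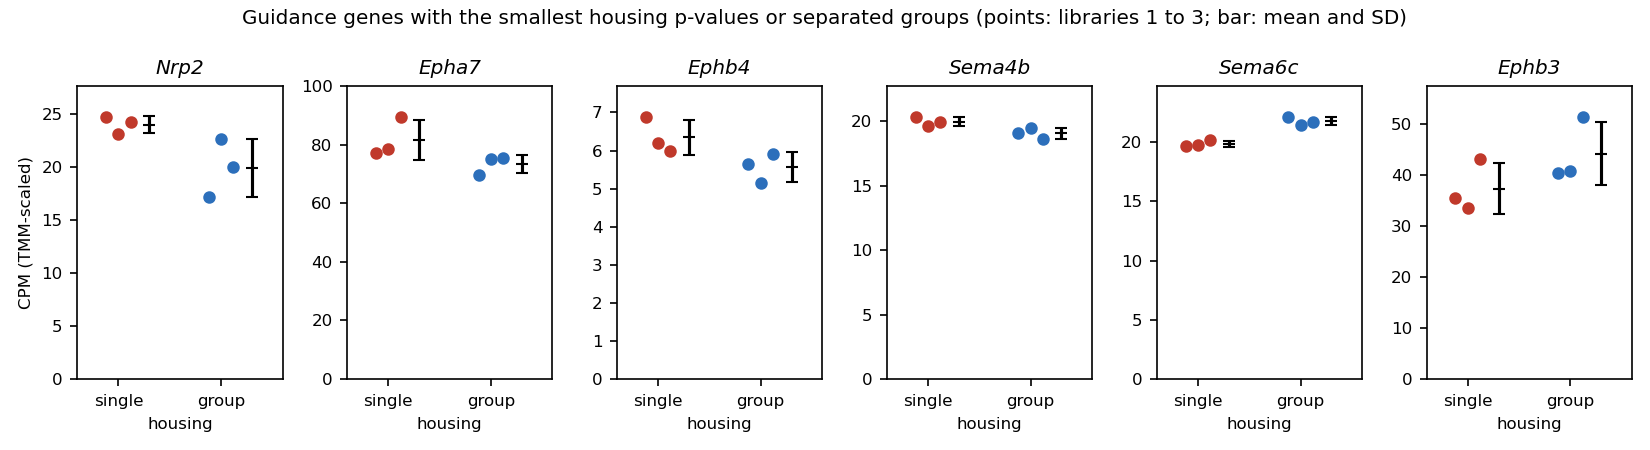
TMM-scaled CPM of 6 guidance genes in each library, single-housed (red) left of group-housed (blue), in replicate order, with black bars for the mean and SD of 3 libraries. Nrp2, Epha7, Ephb4 and Sema4b are separate and higher in single-housed mice, Sema6c is separate and lower, and Ephb3 overlaps.

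The remaining genes with the smallest housing p-values in each direction did not pass the test either. Upward these were Sema3e, at 31.9 ± 3.46 CPM for single-housed and 28.3 ± 0.963 for group-housed mice (difference 0.17 ± 0.10, SE), its receptor Plxnd1, at 136 ± 17.5 (single-housed) and 115 ± 23.5 (group-housed; difference 0.23 ± 0.15, and 0.08 without group-housed replicate 1), and Sema3b, at 2.99 ± 0.189 (single-housed) and 2.54 ± 0.232 (group-housed; difference 0.24 ± 0.15). Downward they were Efnb1, at 16.1 ± 1.27 CPM for single-housed and 18.0 ± 1.09 for group-housed mice (−0.16 ± 0.10), Sema4a, at 85.2 ± 3.92 (single-housed) and 92.4 ± 5.01 (group-housed; difference −0.12 ± 0.07), and Epha10, at 65.9 ± 4.76 (single-housed) and 70.4 ± 11.5 (group-housed; difference −0.10 ± 0.12). The groups of each of these 6 genes overlapped. Exons of Epha10 share 79 bases, 1.44% of its length, with a gene on the opposite strand, and the strand setting of the counting is not given in the sources used here. Nrp1 shares 80 exon bases with the microRNA gene Mir1903, and no other member shares exon bases with another counted gene.

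The most abundant members were close in both groups. Ephb6 had 328 ± 13.0 CPM for single-housed and 324 ± 7.68 for group-housed mice (difference 0.02 ± 0.07, SE), Sema7a had 239 ± 33.0 for single-housed and 240 ± 17.0 for group-housed mice, and Sema6b had 172 ± 1.77 for single-housed and 173 ± 10.9 for group-housed mice. For these 3 genes the difference was well inside the spread. Epha4 had 209 ± 27.4 CPM in single-housed libraries, against 210 ± 44.3 CPM in group-housed libraries, with a larger spread in the group-housed one. Across all 6 libraries, the highest CPM was over 1.5 times the lowest in 14 of 52 guidance genes, 26.9%, against 25.8% of all genes. The median of this ratio was 1.36 for guidance genes and 1.29 for all genes.

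That spread was not even over the members, and it followed the marker lists in some of them. With housing in the model, the slope of each gene on the mean log2 CPM of the striatal markers was tested over all genes. Of 52 guidance genes, 3 rose with it, 5.77%, against 1.45% of all genes, and 0 fell, against 0.125%: Efnb3, Plxnb3 and Sema5b. Among all genes tested, 241 were called in either direction. Without single-housed replicate 3 there were 50 genes and 0 members, without group-housed replicate 3 there were 68 genes and 0 members, and without single-housed replicate 1 there were 353 genes and 5 members. The slopes of the 3 genes stayed positive where the calls were lost. With all 6 libraries they were 0.51 for Efnb3, 0.43 for Plxnb3 and 0.37 for Sema5b. Without single-housed replicate 3 they were 0.56, 0.53 and 0.36, and without group-housed replicate 3 they were 0.51, 0.42 and 0.36. They were 0.43, 0.35 and 0.34 without group-housed replicate 1, and 0.65, 0.535 and 0.44 without single-housed replicate 1. The slope on the oligodendrocyte markers, added after seeing the data, called 5 rising members, 9.62% against 2.46% of all genes, and 2 falling members, 3.85% against 0.898%. Unlike the striatal slope, it was not refitted leaving out each library, so how far its calls rest on single libraries was not tested. The 2 lists were highest in the same 3 libraries, so their slopes share the same data.

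Efnb3 had 126, 118 and 59.9 CPM in single-housed libraries, against 138, 59.1 and 76.8 CPM in group-housed libraries. The 3 libraries rich in both marker lists, single-housed replicates 1 and 2 and group-housed replicate 1, were high, and the other three were low, so both groups spanned the range. The striatal slope was 0.51 ± 0.07 (SE) log2 units per log2 unit of the marker mean with an edgeR adjusted p of 0.00981, and the oligodendrocyte slope was 0.90 ± 0.07 with an adjusted p of 4.98e-05. Plxnb3, a plexin known from oligodendrocytes, had 35.5, 31.1 and 18.9 CPM in single-housed libraries, against 40.8, 20.3 and 22.0 CPM in group-housed libraries. The same 3 libraries were high. Its slopes were 0.43 ± 0.06 on the striatal mean (edgeR adjusted p 0.0125) and 0.74 ± 0.10 on the oligodendrocyte mean (edgeR adjusted p 0.00164). Sema5b, which with Sema5a confines neurites in the mouse retina, had 40.7, 36.9 and 22.0 CPM in single-housed libraries, against 36.5, 22.5 and 23.8 CPM in group-housed libraries. Again the same 3 libraries were high, and the slopes were 0.37 ± 0.05 (edgeR adjusted p 0.00749) and 0.61 ± 0.09 (edgeR adjusted p 0.0047). With the striatal mean in the housing fit, the log2 housing differences turned from 0.15 to −0.24 for Efnb3, from 0.04 to −0.29 for Plxnb3 and from 0.27 to −0.042 for Sema5b, none of them past the test. With the oligodendrocyte mean in place of the striatal mean they were 0.18, 0.07 and 0.26, also not past the test.

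**Figure D4:**
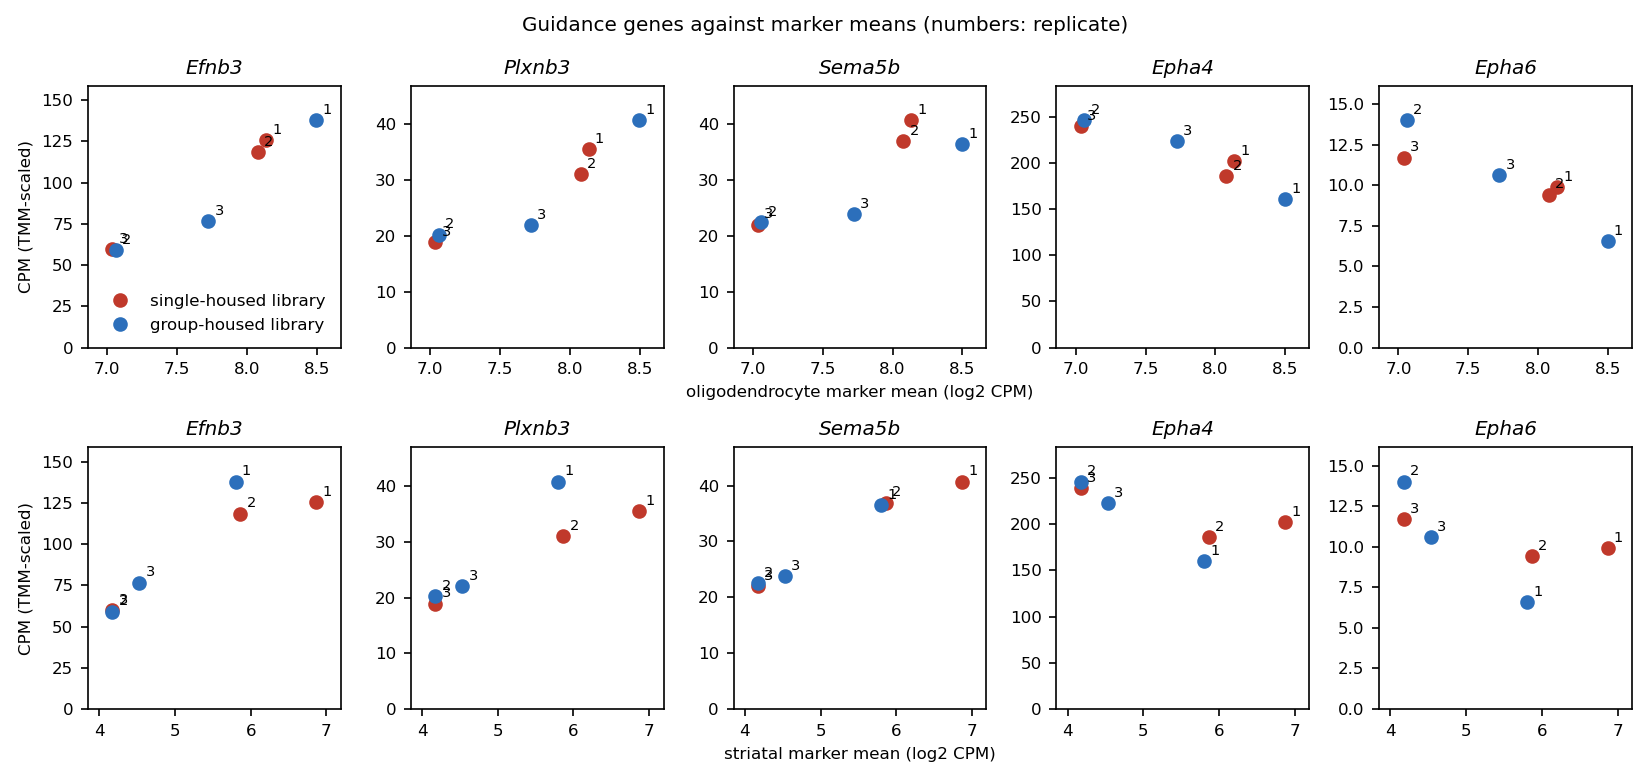
TMM-scaled CPM of 5 guidance genes against the mean log2 CPM of oligodendrocyte markers (top row) and striatal markers (bottom row), 1 point a library, red for single-housed and blue for group-housed, numbered by replicate. Efnb3, Plxnb3 and Sema5b are high in single-housed replicates 1 and 2 and group-housed replicate 1, where both marker means are high, while Epha4 and Epha6 are lower there.

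The other rising members were Sema6a, which takes part in oligodendrocyte maturation, and Ephb1. Sema6a had 37.0, 37.5 and 26.1 CPM in single-housed libraries, against 36.8, 27.3 and 29.3 CPM in group-housed libraries, with an oligodendrocyte slope of 0.38 ± 0.07 (SE; edgeR adjusted p 0.0193) and a striatal slope of 0.22 (adjusted p 0.0716, but 0.0129 with DESeq2 and 0.0499 with no housing term). Ephb1 had 67.6, 62.2 and 49.6 CPM in single-housed libraries, against 66.9, 50.4 and 64.3 CPM in group-housed libraries, with an oligodendrocyte slope of 0.32 ± 0.07 (edgeR adjusted p 0.037) and a striatal slope of 0.17 (adjusted p 0.146). Both were high in the 3 marker-rich libraries, though for Ephb1 group-housed replicate 3 lay above single-housed replicate 2. Efna1, Sema4d and Sema3f had striatal slopes of 0.32, 0.15 and 0.23 that did not pass in edgeR's test (adjusted p 0.112, 0.161 and 0.166).

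Epha4 and Epha6 fell with the oligodendrocyte mean. Epha4 had 202, 186 and 239 CPM in single-housed libraries, against 160, 246 and 223 CPM in group-housed libraries, a slope of −0.37 ± 0.07 (SE; edgeR adjusted p 0.0189). Epha6 had 9.89, 9.42 and 11.7 CPM in single-housed libraries, against 6.58, 14.0 and 10.6 CPM in group-housed libraries, a slope of −0.53 ± 0.12 (edgeR adjusted p 0.0363). Group-housed replicate 1, the library with the highest oligodendrocyte mean, was the lowest for both genes. Their slopes on the striatal mean, −0.18 and −0.24, did not pass (edgeR adjusted p 0.25 and 0.372).

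With both marker means and housing in one fit, the oligodendrocyte slope called 1 rising member, Efnb3, at 0.73 ± 0.15 (SE; edgeR adjusted p 0.0302), where 1.05% of all genes rose. It called 1 falling member, Plxnd1, at −0.79 ± 0.18 (edgeR adjusted p 0.0421), where 1.51% fell. Without the striatal mean in the fit, the oligodendrocyte slope of Plxnd1 was −0.20 (edgeR adjusted p 0.381). In the fit with both means the striatal slope called 0 members, against 0.603% of all genes rising and 0.118% falling. The striatal slope of Plxnd1 was 0.38 there, and −0.04 without the oligodendrocyte mean. The fit, added after seeing the data, spends 4 terms on 6 libraries. The part of tissue composition in any of these slopes was not tested.

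**Figure D5:**
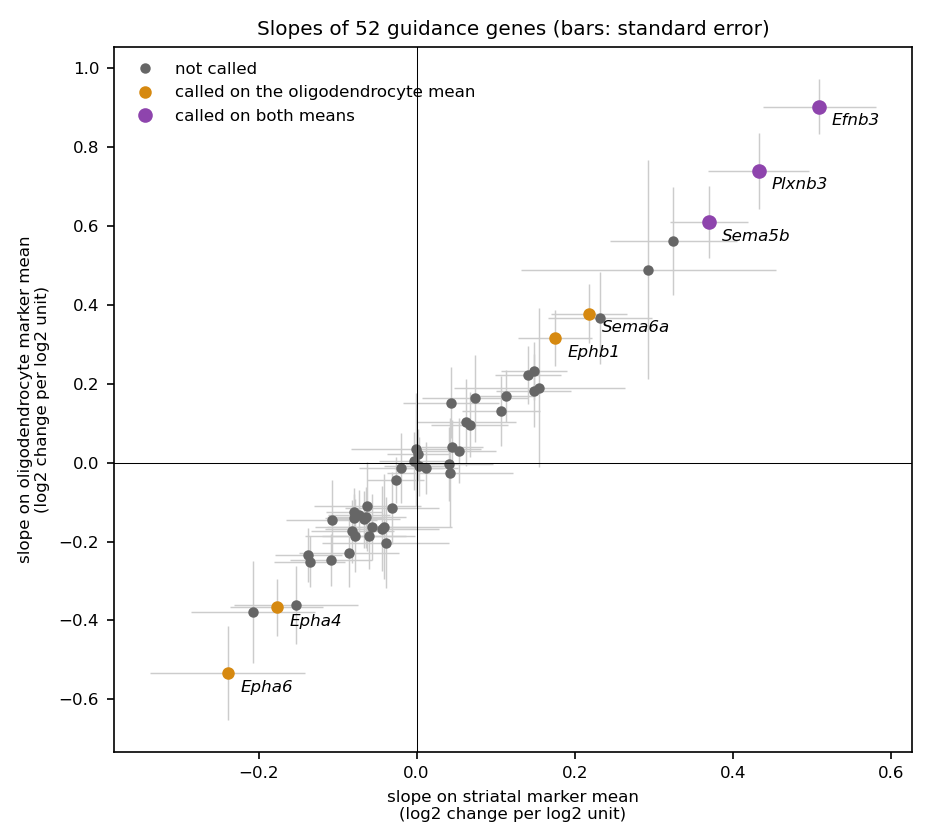
Slope of each of the 52 guidance genes on the striatal marker mean (horizontal) and on the oligodendrocyte marker mean (vertical), in log2 change per log2 unit with bars of 1 standard error. Efnb3, Plxnb3 and Sema5b, called on both means, lie at the upper right, and Epha4 and Epha6, called on the oligodendrocyte mean, at the lower left; both axes use the same 6 libraries.

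The start regions of the genes called on the oligodendrocyte mean are shown to set those that rose beside those that fell, for 5 of the 7, since Efnb3 and Sema6a have no entry in the table used. Sequences are from RefSeq on GRCm38.p6, a different build from that of the counts, and run 5′ to 3′ on the gene's strand from position −250 to 50 relative to the start; 47 of 53 members had an entry. Capitals mark ACAAAG and ACAATG on either strand (CTTTGT and CATTGT in reverse), core letters bound by Sox transcription factors, which were chosen after a first look at these windows. The matches shown do not overlap. Plxnb3 (chrX:73756853-73757152, plus strand) and Sema5b (chr16:35541112-35541411, plus strand) rose with both means, Ephb1 (chr9:102354644-102354943, minus strand) rose with the oligodendrocyte mean, and Epha4 (chr1:77515039-77515338, minus strand) and Epha6 (chr16:60605482-60605781, minus strand) fell with the oligodendrocyte mean.
Plxnb3: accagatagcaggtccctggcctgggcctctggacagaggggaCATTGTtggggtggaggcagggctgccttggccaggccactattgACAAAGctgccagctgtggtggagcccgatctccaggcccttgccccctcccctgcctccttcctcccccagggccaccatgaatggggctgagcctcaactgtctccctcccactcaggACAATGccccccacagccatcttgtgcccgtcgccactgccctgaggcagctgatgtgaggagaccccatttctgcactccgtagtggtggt
Sema5b: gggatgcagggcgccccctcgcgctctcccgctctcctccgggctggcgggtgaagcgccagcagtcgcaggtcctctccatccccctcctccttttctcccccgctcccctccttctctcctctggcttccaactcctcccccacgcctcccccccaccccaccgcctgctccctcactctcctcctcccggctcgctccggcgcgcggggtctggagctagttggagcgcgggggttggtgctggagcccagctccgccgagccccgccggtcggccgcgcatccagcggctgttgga
Ephb1: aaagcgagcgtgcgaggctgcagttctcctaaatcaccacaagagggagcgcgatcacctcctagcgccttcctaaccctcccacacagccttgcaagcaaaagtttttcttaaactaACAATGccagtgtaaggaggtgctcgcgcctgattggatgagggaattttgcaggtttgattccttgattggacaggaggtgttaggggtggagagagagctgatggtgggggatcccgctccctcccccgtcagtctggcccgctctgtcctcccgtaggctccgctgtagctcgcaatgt
Epha4: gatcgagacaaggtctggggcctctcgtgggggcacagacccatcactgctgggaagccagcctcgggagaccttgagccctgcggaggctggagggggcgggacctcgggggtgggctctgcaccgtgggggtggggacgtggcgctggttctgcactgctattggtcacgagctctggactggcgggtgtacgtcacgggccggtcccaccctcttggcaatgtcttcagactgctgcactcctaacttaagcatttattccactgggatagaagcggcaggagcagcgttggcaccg
Epha6: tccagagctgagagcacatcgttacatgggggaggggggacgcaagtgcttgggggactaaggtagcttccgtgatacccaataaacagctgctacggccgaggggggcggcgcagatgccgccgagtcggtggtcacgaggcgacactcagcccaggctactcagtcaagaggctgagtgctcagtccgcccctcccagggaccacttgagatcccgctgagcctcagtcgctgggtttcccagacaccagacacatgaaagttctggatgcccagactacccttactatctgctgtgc
The Plxnb3 window held 3 matches, at positions 44, 89 and 209 counted from 1 at its 5′ end, the Ephb1 window held 1, at position 119, and the windows of Sema5b, Epha4 and Epha6 held 0. Of all 32851 windows of this length, 18.7% held ACAAAG and 12.6% ACAATG, against 16.4% and 9.8% of the 61 windows of these 47 guidance genes. The Plxnb3 window was also poor in CpG, with 4, while the windows of Sema5b, Ephb1, Epha4 and Epha6 had 27, 14, 17 and 15. Guidance genes as a whole had a median of 20 CpG a window, against 7 over all windows, and the GC box GGGCGG, searched on both strands, was in 75.4% of their windows against 35.7% of all. A match of letters is a description and not a binding site.

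Other guidance and signalling genes were counted for comparison, and 0 of the 70 tested passed edgeR's housing test or had an unadjusted p under 0.05. Of the Slit and Robo genes, 9 of 10 were higher in single-housed mice, with a median of 0.12, where 50.7% of all genes were higher. Their summed CPM was lowest in group-housed replicate 1, at 753, and highest in group-housed replicate 2, at 1018. Srgap1, a GTPase activator downstream of Robo, had the largest difference of these, 0.44 ± 0.27 (SE), from 35.1, 22.2 and 14.8 CPM in single-housed libraries, against 20.1, 16.8 and 16.3 CPM in group-housed libraries. Its groups overlapped, with single-housed replicate 3 lowest of all, and with the striatal mean as a covariate the difference was 0.06 ± 0.14. The ligand Slit3 differed by 0.23 ± 0.17 and the receptor Robo3 by 0.20 ± 0.15. Of the netrin genes, 10 of 13 were higher, with a median of 0.09. The netrin receptor Unc5c had 28.0, 29.8 and 30.3 CPM in single-housed libraries, against 23.6, 27.3 and 26.4 CPM in group-housed libraries. The difference was 0.19 ± 0.09. Its groups did not overlap, which held for 1 of 13 netrin genes, 0 of 10 Slit and Robo genes and 4.86% of all genes. The netrin-related Ntng2 differed by 0.21 ± 0.12 and the netrin receptor Dcc by 0.19 ± 0.11.

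Of the semaphorin signalling partners, 14 of 24 tested were higher and 10 lower, with a median of 0.04, where 50.7% of all genes were higher. The kinase Cdk5 differed by −0.10 ± 0.07 (SE), at 127 ± 0.914 CPM for single-housed and 136 ± 5.21 for group-housed mice, the GTPase Rnd1, which binds plexins, by −0.17 ± 0.12 and the kinase Gsk3b by 0.10 ± 0.09. Of the Eph signalling partners, 18 of 23 were higher, with a median of 0.03. The scaffold Grip1, which binds ephrin-B tails, differed by 0.14 ± 0.09, the adaptor Anks1b by 0.10 ± 0.07 and the scaffold Pick1 by 0.08 ± 0.06. Each of these differences was small, as in the guidance genes. Groups did not overlap in 1 of 24 semaphorin partners and 3 of 23 Eph partners, against 4.86% of all genes.

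The striatal mean called 3 of these genes as rising, Srgap1, Unc5b and Cntn2, and 0 as falling, of 70 tested, where 1.45% of all genes rose and 0.125% fell. The oligodendrocyte mean called 3 of the 70 rising and 1 falling, where 2.46% of all genes rose and 0.898% fell. The netrin receptor Unc5b had 46.8, 44.9 and 23.8 CPM in single-housed libraries, against 57.8, 23.5 and 32.7 CPM in group-housed libraries, which is the library pattern of Efnb3. It rose with the striatal mean (0.49, edgeR adjusted p 0.0205) and with the oligodendrocyte mean (0.90, edgeR adjusted p 4.61e-05). Cntn2, an adhesion molecule of axons and glia, also rose with both (0.24 and 0.38, edgeR adjusted p 0.013 and 0.0175), while Slit2, a repellent ligand of Robo receptors, fell with the oligodendrocyte mean (−0.38, edgeR adjusted p 0.0197).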

How the data were processed

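The deposited values are raw read counts, not normalized by the authors, with a column for each library, per the file headers. The submitters' processing notes name STAR, FastQC, featureCounts and mouse build mm9, while the sources used here give no versions, annotation or strand setting. Per the labels' protocols, RNA was column-purified and libraries were made with a stranded kit for mRNA. The deposited length column gave exon bases.

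Counts were scaled by TMM and tested with edgeR 4.0.16 (quasi-likelihood F-test, R 4.3.3) after filterByExpr (minimum count 10, minimum total 15), which kept 15258 of 23284 genes, with Benjamini-Hochberg adjustment at 0.05. Log2 CPM used a prior count of 2, standard errors came from the F statistic, and the test was checked on simulated counts. The simulated housing changes were larger than that of any guidance gene, so the check does not cover differences of the size found here. Groups came from the housing label. Total counts were 25858355 to 33428512 per library, and no pair of libraries agreed within sampling noise (chi-square per degree of freedom 8.56 to 40.6).

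The members, gene lists, tests and named-gene rule were chosen with earlier results of these data known. The rule named, in each of 9 subfamilies, the 3 highest members and the lowest by level, the 6 of smallest housing p in each direction, every member called, the 8 of smallest striatal slope p, and 3 genes of each other pathway list. Epha6, Plxnc1, Plxnb1, Plxna3, Sema4c, Sema5a, Unc5b, Cntn2 and Slit2 were named after their values were seen. Alternatives were DESeq2 size factors, DESeq2 1.42.0, limma-voom (limma 3.58.1), other filters, marker means as covariates, a replicate block and leaving out each library.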

Additional observations from a re-analysis of the deposited data

How the results depend on the processing

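In each housing fit run, 0 guidance genes passed. Their median difference was 0.05, with 0.0061 under the striatal covariate and 0.049 under the oligodendrocyte covariate. It was −0.042 without the 3 libraries of highest striatal markers, and 0.013 to 0.08 leaving out each library. In edgeR's test, 1 of 52 guidance genes had an unadjusted p under 0.05. It was 5 with either marker mean as a covariate, with 402 (striatal) and 467 (oligodendrocyte) of 15258 genes. Leaving out each library gave 0 to 4 guidance genes, with 128 to 806 genes of the whole table. Genes of the whole table called for housing were 0, but 8 with DESeq2, 2 with the oligodendrocyte mean as a covariate, 4 without the 3 libraries of highest striatal markers, and 0 to 1 leaving out each library (1 without group-housed replicate 1 or 2). Members called for the striatal slope were 3 (1.58% of all genes called), but 4 with DESeq2 (2.48%), 4 with no housing term (1.38%), 7 with the oligodendrocyte mean in its place (3.36%), 0 beside the oligodendrocyte mean (0.721%), and 0 to 5 leaving out each library (0.326% to 2.3%). The cause was not tested.

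Some small housing differences changed sign. With the striatal mean as a covariate, the log2 difference was −0.042 for Sema5b, −0.24 for Efnb3, −0.29 for Plxnb3, −0.074 for Sema6a, −0.23 for Efna1, −0.12 for Sema4d and −0.056 for Sema3f. With the oligodendrocyte mean as a covariate it was 0.26 for Sema5b, 0.18 for Efnb3 and 0.069 for Plxnb3. In that fit it was 0.10 for Sema6a, 0.050 for Efna1 and 0.14 for Sema3f. That of Sema4d was −0.0054 with the replicate block, −0.0057 with limma-voom and −0.0022 with the oligodendrocyte covariate. Leaving out each library gave −0.082 to 0.58 for Efnb3, −0.15 to 0.43 for Plxnb3, −0.12 to 0.31 for Efna1, −0.075 to 0.13 for Sema4d, −0.13 to 0.10 for Ephb1 and −0.19 to 0.040 for Epha10. None of these passed the test. The labels do not say what a replicate number shares. Same-numbered libraries correlated at 0.259, −0.383 and 0.232 in their deviations from the group means. Libraries did not all correlate best with their own number. The 3 same-numbered pairs, of mixed sign, do not settle whether a number marks a shared step. The replicate block called 0 genes, with 249 at an unadjusted p under 0.05 against 238 without it. With 3 libraries a group and a median standard error of 0.12, differences of the size seen in the guidance genes were not resolved. With 1 single-housed against 2 group-housed libraries, those without high striatal markers, 0 guidance genes were called; this assumes the same variation in both groups.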
